A study of Mus musculus with 3 samples.

Results

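Messenger RNA levels of the transcription factors that guide the development of type 2 innate lymphoid cells were compared between these cells and mast cells of the mouse peritoneal cavity. The set held 9 genes chosen by name for that role, Gata3, Rora, Id2, Ets1, Bcl11b, Tcf7, Zbtb16, Nfil3 and the Notch partner Rbpj. Of these, 8 were measured by at least 1 probe set naming no other gene, out of 22180 genes measured in this way, and Tcf7 is not analysed here. The 8 genes had 10 such probe sets, and 2 further probe sets named Gata3 or Ets1 together with other genes.

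Female BALB/c mice, naive and 10 to 11 weeks old, gave the peritoneal cells, which were pooled from 5 animals and sorted by flow cytometry, and 100 cells of each of 3 populations were amplified and hybridised to 1 array per population. The mice were untreated and carried no engineered allele that the labels name. The type 2 innate lymphoid cells were sorted as lacking lineage markers and FcεRI, the IgE receptor, with little or no c-kit, and as positive for the receptors CD127, CD25 and T1/ST2. Mast cell progenitors and mature mast cells were sorted as high for c-kit and positive for FcεRI and T1/ST2, without CD127 or CD25. They were divided by side scatter, which was low for progenitors, and by integrin β7, which was high for progenitors. Since each population has a single array, levels and differences are given without an error or a test.

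Innate lymphoid cells arise from lymphoid progenitors under a small circuit of DNA-binding proteins. Nfil3, Tox and Tcf7 act early, Zbtb16 marks a shared innate lymphoid precursor, and Id2 keeps the lineage on course by blocking E proteins, the helix-loop-helix factors of adaptive lymphocytes. Gata3, Rora and Bcl11b then set the type 2 identity, and Notch signals, which act on DNA through Rbpj, favour that fate. Mast cells come from myeloid progenitors and rely on factors such as Gata2, Gata1 and Mitf.

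The deposited values are log2 levels made by RMA, in which a difference of 1 is 2-fold. A gene was counted as different when 2 arrays were at least 1 apart in its log2 level and the higher level exceeded the median of its array, taken over probe sets naming 1 gene. Those medians were 6.32 (progenitors), 6.30 (mature mast cells) and 6.30 (innate lymphoid cells). All 8 measured members were above the median on all 3 arrays. Where a gene had several probe sets, the brightest by mean over the arrays stood for it.

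Marker transcripts followed the sort in part. Among 12 measured markers of type 2 innate lymphoid cells, 6 passed 2-fold with a higher level in these cells than in progenitors, and 6 passed against mature mast cells, rules that 1.88% and 1.26% of all genes passed. Il7r, which encodes the sort marker CD127, was at a log2 level of 8.72 in innate lymphoid cells, 5.89 in progenitors and 5.76 in mature mast cells. Of 13 mast cell markers, 11 were at least 2-fold lower in innate lymphoid cells than in mature mast cells and 6 than in progenitors, against 1.34% and 0.766% of all genes. The genes of some sort markers did not set every population apart as the sort did. Il2ra, which encodes CD25, was at 7.25 in innate lymphoid cells and at 6.58 in both mast cell populations, under 2-fold. Kit, which encodes c-kit, was at 6.88 in progenitors, close to the 6.63 of innate lymphoid cells, and at 10.29 in mature mast cells. Fcer1a, a chain of FcεRI, was likewise at 5.37, 5.05 and 8.87 in that order. Progenitors, sorted as high or positive for both proteins, thus lay near the innate lymphoid cells for both transcripts. None of the 9 T cell, 7 B cell, 8 natural killer, 8 macrophage or 8 eosinophil and neutrophil markers measured was counted as different in any pair of populations. Over all genes, between 0.509% and 1.93% were counted in each direction of a pair. Lists of 7 to 9 genes are too small to set the absence of a call apart from these shares. The summed log2 level of the T cell markers was 59.84 in innate lymphoid cells, against 60.39 in progenitors and 59.35 in mature mast cells. A transcript level from sorted cells in bulk does not separate fewer expressing cells from less RNA per cell.

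By the probe set standing for each gene, Rbpj, Id2 and Ets1 were highest in innate lymphoid cells, by more than 0.5 from both mast cell populations. The second Rbpj probe set was 0.49 above progenitors, and the probe set naming Ets1 with Taok1 was equal on all 3 arrays. The other 5 of the 8 factors differed by less than 0.2 in every probe set. Rbpj alone passed the 2-fold rule, 1 of 8 members against progenitors and 1 of 8 against mature mast cells. Over all genes, the shares at least 2-fold higher in innate lymphoid cells were the 1.88% and 1.26% given above. A count of 1 in a set of 8 is too small to set apart from these shares, and that call rests on 1 of the 2 Rbpj probe sets, as described below. The median difference of the 8 members was 0.028 against each mast cell population, and that of all genes was 0. This median lies midway between 0 and the 0.06 of the brightest Gata3 probe set. Whether that probe set measured Gata3 was not tested, as described at the end. Both comparisons use the same innate lymphoid array and are therefore not independent of each other.

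**Figure D1:**
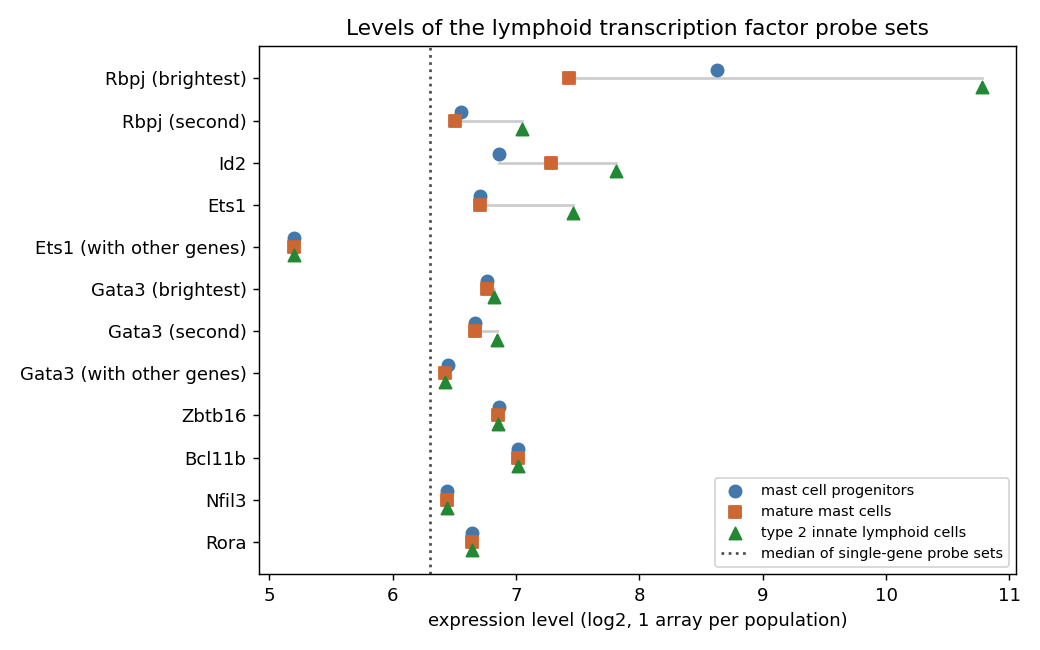
Log2 expression levels (horizontal axis) of every probe set naming a member, with 1 symbol for each of the 3 arrays and a grey line from the lowest to the highest array. The brightest Rbpj probe set spans 7.43 to 10.78, Id2 spans 6.86 to 7.81, and the symbols of Rora, Bcl11b and Nfil3 lie at the same level. The dotted line is the mean of the arrays' medians.

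Rbpj encodes the protein that binds DNA in the Notch pathway, where it represses targets until the cleaved receptor joins it. Its brightest probe set was at 10.78 in innate lymphoid cells, 8.63 in progenitors and 7.43 in mature mast cells. The innate lymphoid level was 4.43-fold that of progenitors and 10.2-fold that of mature mast cells, and the progenitor level was 2.29-fold that of mature cells. The order was therefore innate lymphoid cells, progenitors and mature mast cells. Against mature mast cells 0.135% of all genes had a difference as high, and against progenitors 0.78%. Between the mast cell populations Rbpj was again the only member past 2-fold, where 0.509% of all genes were lower in mature cells by at least that much.

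The other probe set of Rbpj gave much smaller differences in the same direction for the innate lymphoid cells. It was at 7.05 in innate lymphoid cells, 6.55 in progenitors and 6.51 in mature mast cells. These are 1.41-fold and 1.45-fold higher levels in innate lymphoid cells, and the mast cell populations were 0.04 apart. By this probe set no member passed 2-fold in any pair of populations. With the mean of both probe sets, Rbpj was 1.32 above progenitors and 1.94 above mature mast cells on the log2 scale.

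Both probe sets carry the name Rbpj in the platform's gene table, but their numbers place them in different runs of the array. Probe set numbers follow the chromosomes. Of the probe sets that could be placed by the RefSeq gene table of GRCm38.p6, 97.6% had neighbours on both sides whose genes lie on the same chromosome as their own. The dimmer Rbpj probe set lies between Smim20 and Tbc1d19, on chromosome 5 as Rbpj itself is. The brighter one lies between Nobox and Ezh2, on chromosome 6. RefSeq lists 24 genes between these neighbours, and among them is Rbpj-ps3, a pseudogene of Rbpj that no probe set of the platform table names. RefSeq lists the further pseudogenes Rbpj-ps1 and Rbpj-ps2 on chromosome 4. Which locus gave the signal of the brighter probe set was not tested, so its levels are uncertain as levels of the Rbpj transcript.

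Probe sets that lie in this way between neighbours on another chromosome numbered 136, which is 0.583% of those placed, and they passed the 4-fold rule more often than the others. Between innate lymphoid cells and progenitors 21.3% of them were at least 4-fold different, against 1.07% of 22768 probe sets in chromosome order. Between innate lymphoid and mature mast cells the shares were 8.09% and 1.03%. They were also brighter, with a median log2 level of 7.56 against 6.32. Among probe sets with a mean level of 8 or more, the shares were 38.6% of 57 and 19.5% of 665 for innate lymphoid cells against progenitors, and 8.77% and 9.62% for innate lymphoid against mature mast cells. For innate lymphoid against mature mast cells they were 5.88% of 51 and 0.542% of 18438 below a mean level of 7, and 10.7% of 28 and 1.94% of 3665 at 7 to 8. With both directions pooled, the shares in that comparison lay close to each other only among the brightest probe sets. By direction, 5 of those 57 were higher in innate lymphoid cells and 0 lower, against 29 higher and 35 lower of the 665. Against progenitors, 19 of the 57 were higher and 3 lower, and 97 of the 665 were higher and 33 lower. Below a mean level of 8, all calls of the smaller group in both comparisons were higher in innate lymphoid cells. The counts behind the shares of the smaller group are low. The part of level in these shares was not tested. This comparison was chosen after the 2 Rbpj probe sets had been seen.

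**Figure D2:**
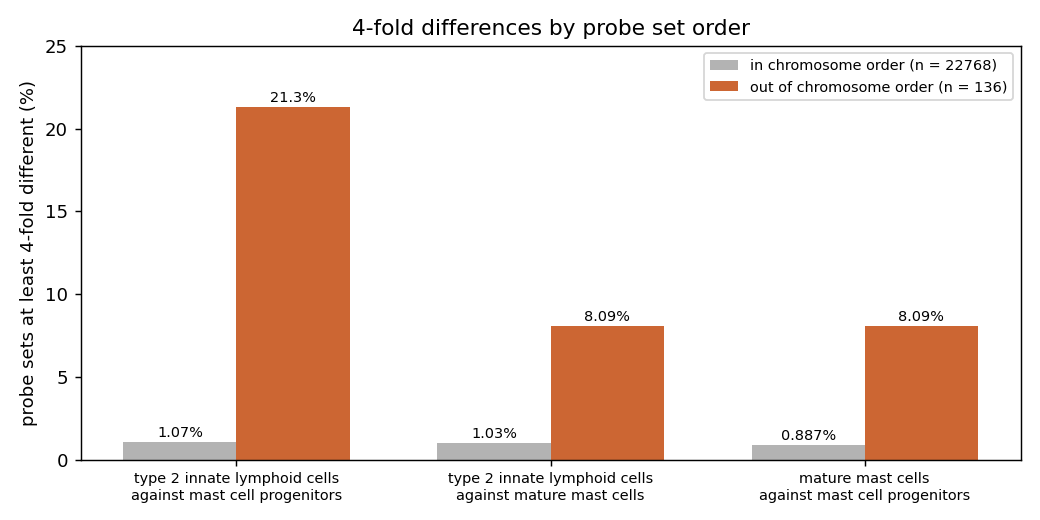
Share of probe sets at least 4-fold different (vertical axis, percent) in each pair of populations, for 22768 probe sets whose neighbours by number lie on the same chromosome (grey) and 136 whose neighbours lie on another (orange). The orange bars reach 21.3%, 8.09% and 8.09%, and the grey bars lie between 0.887% and 1.07%.

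Id2 encodes a helix-loop-helix protein without a DNA-binding region, which binds E proteins and holds them off DNA. It was at 7.81 in innate lymphoid cells, 7.29 in mature mast cells and 6.86 in progenitors by its only probe set. The innate lymphoid level was 1.93-fold that of progenitors and 1.44-fold that of mature mast cells. Id2 thus lay just under the 2-fold rule against progenitors, and its order differed from that of Rbpj, with progenitors lowest. A difference from progenitors at least as high was found in 2.10% of all genes, and from mature mast cells in 3.12%. Between the mast cell populations Id2 was 0.42 higher in mature cells, the largest positive difference among the members.

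None of the 3 genes for E proteins, the partners of Id2, passed 2-fold in any pair. A list of 3 is too small to set this apart from the shares of all genes. Tcf3, which encodes the E proteins E12 and E47, was at 6.87 in innate lymphoid cells and progenitors and at 7.46 in mature mast cells. Id1 was at 6.71 in innate lymphoid and mature mast cells and at 6.62 in progenitors. Id3 was at 6.88 in innate lymphoid cells and progenitors and at 6.81 in mature mast cells. The widest range among Id1, Id3 and Id4 was thus far below that of Id2.

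Ets1 encodes a founding member of the ETS family of transcription factors, expressed widely in lymphocytes. It was at 7.46 in innate lymphoid cells and at 6.71 in both mast cell populations. The innate lymphoid level was 1.68-fold that of either mast cell population, and the mast cell values were identical. This probe set lies by number between Kcnj1, on chromosome 9 as Ets1 is, and a probe set of Tmed2, on chromosome 5, beyond which chromosome 9 goes on. A difference at least as high was found in 2.68% of all genes against progenitors and in 2.04% against mature mast cells. The probe set that names Ets1 together with Taok1 had the same value of 5.20 on all 3 arrays, below the arrays' medians. Ets2, the closest paralogue, was at 6.48 on all 3 arrays.

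**Figure D3:**
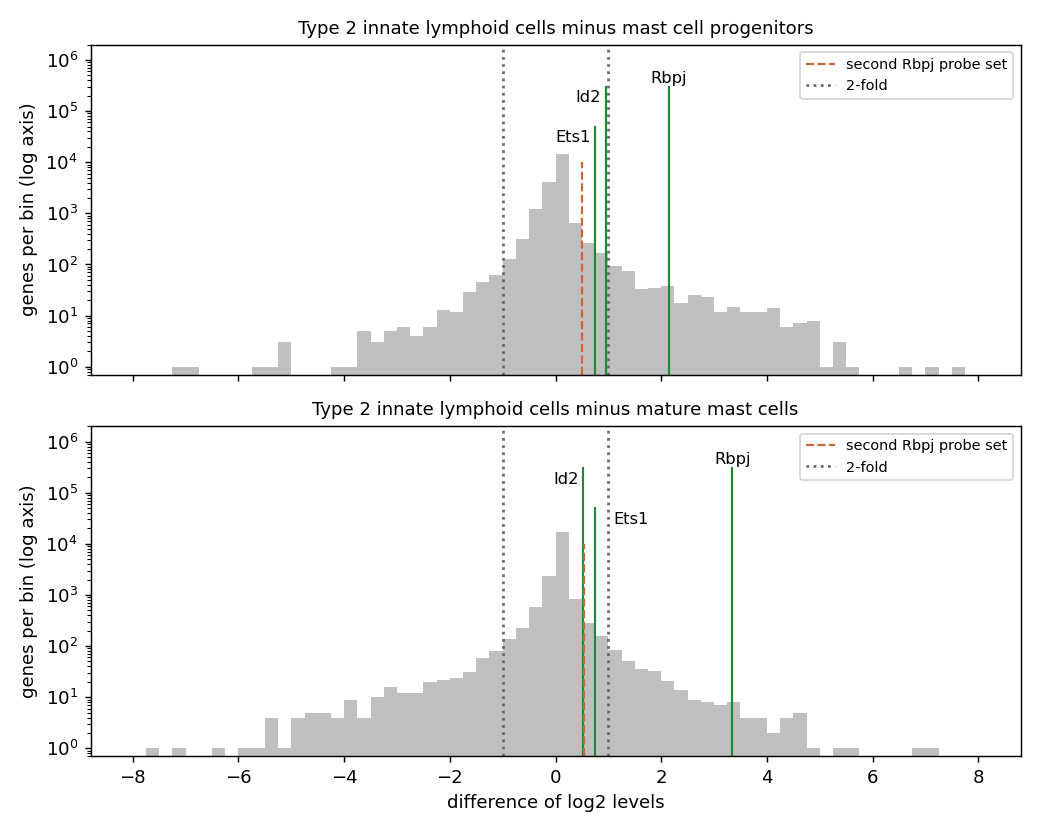
Number of genes (vertical axis, log scale) by difference of log2 levels (horizontal axis, bins of 0.25) between innate lymphoid cells and progenitors (top) or mature mast cells (bottom). Green lines mark Rbpj by its brightest probe set (2.15 and 3.34), Id2 (0.95 and 0.52) and Ets1 (0.75 and 0.75), the dashed line marks the second Rbpj probe set (0.49 and 0.54), and dotted lines mark 2-fold.

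Upstream sequences of Rbpj and Id2 are shown because these genes were highest in the innate lymphoid cells and their start regions are in the RefSeq promoter table of GRCm38.p6, which is built on the C57BL/6J genome and not on BALB/c. The table matched 7 of the 9 genes, and Ets1 and Zbtb16 were not matched. Each sequence is the 250 bases before a transcription start, written 5′ to 3′ on the strand of the gene. That of Rbpj is chr5:53590096-53590345 on the plus strand, before the first of 2 listed starts, and that of Id2 is chr12:25096093-25096342 on the minus strand. Capitals mark TGGGAA, the core of the sequence that Rbpj binds, or its reverse complement TTCCCA.
Rbpj: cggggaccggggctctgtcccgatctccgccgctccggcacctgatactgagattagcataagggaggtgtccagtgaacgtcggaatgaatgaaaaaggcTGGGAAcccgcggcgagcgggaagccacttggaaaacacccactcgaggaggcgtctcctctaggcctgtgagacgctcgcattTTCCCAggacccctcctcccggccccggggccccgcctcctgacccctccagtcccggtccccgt
Id2: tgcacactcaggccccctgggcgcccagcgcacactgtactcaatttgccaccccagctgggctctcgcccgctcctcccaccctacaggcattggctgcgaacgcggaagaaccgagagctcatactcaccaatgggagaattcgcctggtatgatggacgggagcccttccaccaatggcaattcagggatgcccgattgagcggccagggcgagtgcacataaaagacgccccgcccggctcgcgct
The Rbpj sequence held this motif at 2 places, beginning 149 bases before the start on the plus strand and 65 bases before it on the other. The Id2 sequence held none. Of 32851 promoters of the same length, 21.6% held the motif on either strand. The further motifs searched on both strands were AGATAA and TGATAA for GATA factors, AGGTCA for Rora, CTTTGAA for Tcf7, TTACGTAA for Nfil3, CCGGAAG for Ets1 and CANNTG, the E box of E proteins. Neither sequence held any of these but the E box, which was found 2 times before Rbpj, 1 time before Id2 and in 66.2% of all promoters. Those letters overlap no capital here. The other shares were 9.99%, 7.94%, 14%, 4.46%, 0.113% and 6.91% of promoters, in the order named. A match is a description of the letters and not of a bound site.

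Gata3, which encodes the zinc finger factor required for type 2 innate lymphoid cells and for type 2 helper T cells, differed little on these arrays. Its brightest probe set was at 6.82 in innate lymphoid cells and at 6.76 in both mast cell populations. Its second probe set was at 6.85 in innate lymphoid cells and at 6.67 in both mast cell populations. Both were highest in innate lymphoid cells, by 0.06 and 0.18, and 13.1% of all genes had a difference from progenitors at least as high as the brightest. Whether the brightest measured Gata3 or a transcript of the other strand was not tested, as described at the end. The probe set that names Gata3 with 9230102O04Rik and 4930412O13Rik was not highest in innate lymphoid cells, with 6.45 in progenitors and 6.42 in both other populations. The paralogues that serve mast cells were close to equal too. Gata2 was at 7.59 in both mast cell populations and 7.50 in innate lymphoid cells, and Gata1 was at 6.54 in mature mast cells and 6.43 in the other populations.

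Rora, Bcl11b and Nfil3 each had 1 value on all 3 arrays. Rora, which encodes a nuclear receptor needed for the type 2 innate lymphoid lineage, was at 6.64. Bcl11b, a zinc finger factor that holds T cell and type 2 innate lymphoid identity, was at 7.02. Nfil3, a basic leucine zipper factor of early innate lymphoid progenitors, was at 6.44. Zbtb16, which encodes PLZF, was at 6.86 on all 3 arrays to 2 decimals, with progenitors 0.004 higher. These 4 genes therefore give no order of the populations.

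Values that agree in every printed digit were common in the deposited table. Of all genes, 47.9% had the same value on all 3 arrays, against 3 of the 8 members. Between innate lymphoid cells and progenitors 57.0% of all genes and 3 members were tied, between innate lymphoid and mature mast cells 60.7% and 4 members, and between the mast cell populations 58.3% and 5 members. The share of genes tied on all 3 arrays was 50.3% at mean levels of 6.5 to 7, where Gata3, Rora, Ets1 and Zbtb16 lie, and 40.2% at 7 to 8, where Id2 and Bcl11b lie. It was 10.3% at 8 to 9 and 2.62% above 9. A tie at these levels does not show that the transcript was equally abundant in the populations.

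**Figure D4:**
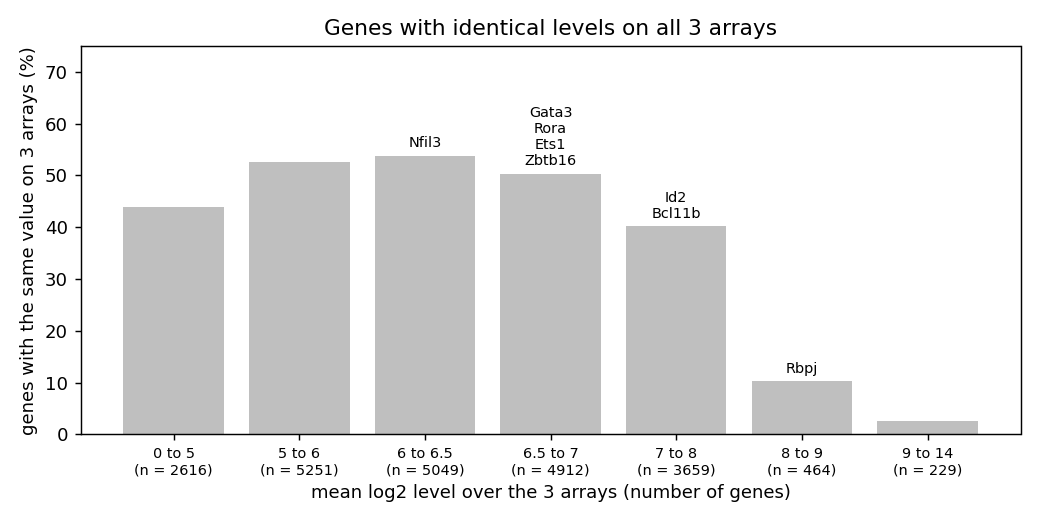
Share of genes with the same value on all 3 arrays (vertical axis, percent) by mean log2 level (horizontal axis, with the number of genes), and the members whose mean lies in each class. The share is 53.8% at 6 to 6.5 and 2.62% at 9 to 14, and all members but Rbpj lie below a mean level of 8.

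The Notch pathway was followed through 34 measured genes, since Rbpj acts on DNA for all Notch receptors. In innate lymphoid cells none was at least 2-fold higher than in either mast cell population and 1 was at least 2-fold lower than in both. Over all genes, 0.766% were at least 2-fold lower in innate lymphoid cells against progenitors and 1.34% against mature mast cells. The shares at least 2-fold higher were 1.88% and 1.26%. A list of 34 is too small to set these counts apart from such shares. The median difference was 0 in each pair of populations, and 20 of the 34 genes were tied on all 3 arrays. The receptor genes Notch1 and Notch2 were at 7.36 and 7.29 on every array. Hes1, a direct target of the pathway in many cells, was at 7.33 in innate lymphoid and mature mast cells and at 7.35 in progenitors.

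The gene that passed was Psenen, which encodes a subunit of γ-secretase, the protease that frees the Notch intracellular domain. Its brightest probe set was at 8.22 in innate lymphoid cells, 10.06 in mature mast cells and 10.70 in progenitors. The innate lymphoid level was lowest, 5.58-fold below progenitors and 3.60-fold below mature mast cells. As with Rbpj, this probe set lies out of chromosome order and the gene has another one in order. The one in order was at 8.29 in innate lymphoid cells, 8.16 in progenitors and 6.92 in mature mast cells. By that probe set the innate lymphoid level was highest, 2.59-fold that of mature mast cells, so the direction depends on the probe set.

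Between the mast cell populations 1 of the 34 Notch genes passed 2-fold, where 1.93% of all genes were higher in mature cells by that rule. It was Itch, which encodes a ubiquitin ligase that acts on Notch receptors among other targets, at 6.81 in mature mast cells, 5.45 in progenitors and 5.86 in innate lymphoid cells. Hes5, another target gene of the pathway, was at 8.03 in progenitors and 7.23 in the other populations by its brightest probe set. Its other probe set was at 6.69 and 6.55. Hes5 thus stayed under 2-fold in both probe sets, with progenitors higher in each.

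**Figure D5:**
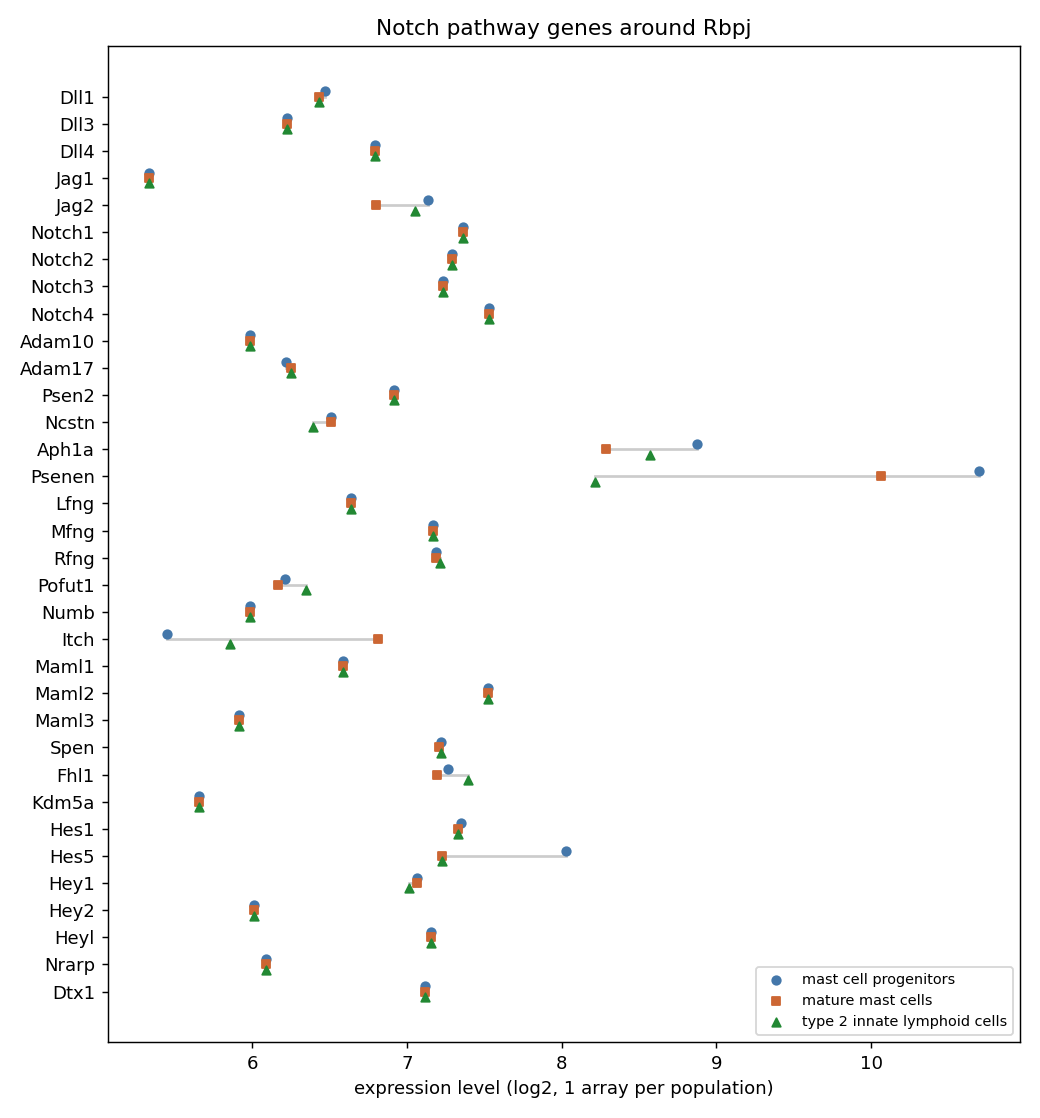
Log2 expression levels (horizontal axis) of the 34 measured Notch pathway genes by their brightest probe set, with 1 symbol for each of the 3 arrays, ordered as ligands, receptors, processing enzymes, modifiers, coactivators, corepressors and targets. Most symbols coincide, and Psenen (8.22 to 10.70), Itch (5.45 to 6.81) and Hes5 (7.23 to 8.03) have the widest ranges.

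Other transcription factors of lymphoid cells were followed as a further list. Of 31 measured, 2 were at least 2-fold higher in innate lymphoid cells than in each mast cell population, none was lower, and 29 did not pass, where 1.88% and 1.26% of all genes were higher and 0.766% and 1.34% lower by that rule. They were Batf, a basic leucine zipper partner of Irf4 and Jun proteins, and Cbfb, which encodes the common partner of the Runx factors. Batf was at 8.81 in innate lymphoid cells, 7.65 in mature mast cells and 7.53 in progenitors. Cbfb was at 6.92 in innate lymphoid cells, 5.71 in mature mast cells and 5.81 in progenitors. The probe sets of both genes lie in chromosome order, and innate lymphoid cells stand above both mast cell populations in each. A list of 31 is too small to set 2 calls, or the absence of lower genes, apart from the shares of all genes. Both comparisons use the same innate lymphoid array. Tox2, the brightest gene of the list, was at 8.12 in innate lymphoid and mature mast cells and at 8.20 in progenitors. The list's median difference was 0 in every pair, and 15 of its genes were tied on all 3 arrays. Of the 15 measured paralogues of the members none passed 2-fold in any pair, and 9 were tied. With 15 genes, the absence of a call cannot be set apart from the shares of all genes.

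Genes named in the field as targets of these factors included several with higher levels in innate lymphoid cells. Of 23 measured receptors and effectors, 6 were at least 2-fold higher in innate lymphoid cells than in progenitors and 6 than in mature mast cells, and none was lower. Over all genes, 1.88% and 1.26% were higher and 0.766% and 1.34% lower by that rule. A list of 23 is too small to set the absence of lower genes apart from these shares. At 4-fold the counts were 5 and 4, where 0.888% and 0.401% of all genes were as much higher. The list's median differences were 0 and 0.06. The members that passed 2-fold were Il7r, Cxcr6, a homing receptor, Arg1, which encodes arginase 1, Klrg1, an inhibitory receptor, Tnfrsf18, which encodes GITR, and Cysltr1, a receptor for cysteinyl leukotrienes. All of these but Cysltr1 are also among the type 2 innate lymphoid markers counted above, and Il7r encodes a sort marker. The counts of this list and of the markers are therefore not separate evidence. Cysltr1 was at 6.97 in innate lymphoid cells, 5.42 in progenitors and 5.07 in mature mast cells. The cytokine genes Il5 and Il13, which Gata3 is known to drive, did not pass. Il5 was at 6.09 in innate lymphoid cells and at 5.60 in both mast cell populations, and Il13 was at 7.41 in innate lymphoid and mature mast cells and at 7.65 in progenitors. This list was drawn up with earlier results of these data known and is no independent evidence of a direction.

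The genes whose pattern over the 3 arrays was most like that of each of the 3 varying factors were found by the distance between their levels after each gene's mean was subtracted. Only genes with a range at least 80% of the factor's were considered, and the values describe 3 arrays. For Id2, the nearest of 1006 genes were Utp3, Snrpd3 and Atp6v0e2, at distances of 0.013, 0.017 and 0.029. For Ets1, the nearest of 1283 genes were Elf4, Ccdc59 and Anapc4, at 0.0030, 0.0050 and 0.0067. Elf4 was at 7.57 in innate lymphoid cells and at 6.82 in both mast cell populations. For Rbpj, by its brightest probe set, the nearest of 177 genes were Dcpp2, Sh3bgrl3 and Ei24, at distances of 0.40, 0.62 and 0.75. The distances were not scaled to the range of the factor, which was widest for Rbpj, and Rbpj had the fewest candidates. Distances are therefore not compared between factors.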

How the data were processed

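The authors deposited log2 levels of 41345 probe sets. RMA is named in the submitters' processing notes, without software or version. That the scale is log2 follows from the range of the levels, 2.23 to 13.7. Levels under a detection limit are not marked, and the number of arrays limits the precision. By the platform's gene annotation, 23521 probe sets named 1 gene, 1814 several and 16010 were unnamed in it. Levels were subtracted between arrays with Python 3.11.15 and pandas 2.3.3, and the counting step was tested on simulated data. No test is possible with 1 array per population. Chromosomes of genes came from RefSeq GRCm38.p6 through Entrez identifiers, and the array's genome build is not given in the sources used here.

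The members and gene lists were chosen with earlier results of these data known. Named genes were the members, up to 6 genes of each list past 2-fold, the list's brightest gene, and the 3 nearest patterns of members with a range of at least 0.5. Not all are described, and Kit, Fcer1a, Il2ra, Il5, Il13, Hes1, Hes5, Notch1, Notch2, Id1, Id3, Ets2, Gata1 and the second probe sets were added after their values were seen. Alternatives were other ways to join probe sets, array scaling, the floor, the size rule, and, added after seeing the data, leaving out probe sets out of chromosome order.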

Additional observations from a re-analysis of the deposited data

How the results depend on the processing

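The counts of members past 2-fold, 1 in each pair of populations, all rest on the brightest Rbpj probe set. Leaving out probe sets out of chromosome order, an alternative added after seeing the data, gave 0 in each pair, as the other Rbpj probe set then stood for the gene. With the mean or the median of a gene's probe sets the count between the mast cell populations was 0. With a 1.5-fold rule the counts were 3 for innate lymphoid cells against progenitors and 2 against mature mast cells, since Ets1 and Id2 then passed against progenitors and Ets1 against mature cells. The share of all genes past 1.5-fold was not counted, so these counts have no background beside them. A difference as high as that of Ets1 was found in 2.68% of all genes against progenitors and 2.04% against mature mast cells. A floor at the 75th percentile, no floor, both scalings and probe sets naming several genes kept the counts at 1. Normalizing the arrays to each other again by quantiles put Rbpj 1.95 above progenitors, below 4-fold, and it was 2.15 as deposited.

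The median difference of the members, 0.028 against each mast cell population, was 0.058 against both with the mean or the median of probe sets. It was 0.040 against progenitors and 0.022 against mature cells with a common array median, and 0.046 and 0.038 after the quantile step. Between the mast cell populations it was 0.018 and 0.010 under these scalings, and 0 as deposited. The common array median moved every gene alike, by 0.013 against progenitors, -0.006 against mature cells and 0.018 between the mast cell populations. The members therefore did not move relative to all genes under it. No difference of a member past 2-fold changed sign under any of the alternatives run. No paired analysis was possible because each population has 1 array. No array could be left out for the same reason. Signal over background was not used here, so dim members have no detection call.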

Other observations

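The 2 Gata3 probe sets lie in different runs of probe set numbers. RefSeq puts Gata3 on the minus strand. Around the second Gata3 probe set, all 10 nearest neighbours by number name genes on the minus strand, and around the brightest 9 of 10 name genes on the plus strand. The brightest also has the gene 4930412O13Rik as a neighbour. Whether it measured Gata3 or a transcript of the other strand was not tested.

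Where the brightest of several probe sets of a gene passed 4-fold, another one often did not. A probe set with equal values on both arrays was not counted as having the same direction, so the remaining genes need not run the opposite way. Between innate lymphoid cells and progenitors 62 such genes were at least 4-fold different, in 41 another probe set had the same direction, and in 17 another was 4-fold different too. Between innate lymphoid and mature mast cells the counts were 30, 14 and 7. Rbpj is among the genes whose other probe set had the same direction without reaching 4-fold in both comparisons.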
